A study of Homo sapiens
Mus musculus with 2 samples.

Results

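Human cells with a high level of 6 mitotic transcripts were compared with human cells with a low level of them in 2 Drop-seq libraries. The 6 genes were MKI67, TOP2A, CCNB1, CDC20, UBE2C and CENPF, and each cell was scored by the percentage of its human UMIs (unique molecular identifiers, which count molecules rather than PCR copies) that fell on them. Human cells were barcodes with at least 2000 UMIs of which at least 90% were human, and 364 of the 6000 barcodes in the tables met this. The high-score group held the cells at or above the 75th percentile of the score within their own library, and the low-score group those at or below the 25th percentile. The cells between, called middle cells, were split at the median into a lower-middle and an upper-middle group. This gave 21 cells each of high and low score among the 82 human cells in the library loaded at 150 cells/µl, and 71 each among the 282 in the library loaded at 300 cells/µl. The 92 high-score and 92 low-score cells were thus chosen by the summed level of the 6 genes in these same cells.

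Both libraries were made from equal numbers of 4 lymphocyte lines pooled together, which were Jurkat and TALL104 (human) and EL4 and IVA12 (mouse), so the cells of both groups went through the same preparation. Drop-seq captures single cells in droplets with barcoded beads. Each loading concentration had 1 library, so the libraries were the only replicates of the comparison, and nothing in the labels says that they came from separate cultures. The files name genes by Ensembl identifier and T cell markers could not be paired with identifiers here, so whether the cells were Jurkat or TALL104 cells was not checked, and they are called human cells. Nor was it checked whether both lines had the same part in both groups.

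A dividing cell copies its DNA in S phase and separates the copies in mitosis. Entry into mitosis is driven by cyclin B bound to its kinase, and exit from it by the anaphase-promoting complex, a ubiquitin ligase that marks cyclin B and the proteins holding the sister chromatids together for destruction. Many transcripts of this machinery are made late in the cycle and are scarce in early G1. CCNB1 encodes the cyclin itself. CDC20 encodes the activator of the anaphase-promoting complex, and UBE2C the ubiquitin-conjugating enzyme that works with it. TOP2A encodes the topoisomerase that untangles the DNA of chromosomes, CENPF a protein of the kinetochore, where chromosomes meet the spindle, and MKI67 the Ki-67 protein, which coats mitotic chromosomes and serves as a marker of proliferation. Several of these transcripts also rise before mitosis, and no morphology was recorded, so a high score marks a level of transcripts and not a cell seen in mitosis.

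The table of the library at 150 cells/µl held 2398956 UMIs and that at 300 cells/µl held 8707135. The chosen human cells had a median of 6315 human UMIs at 150 cells/µl and of 3792 at 300 cells/µl. The tables shared 1 barcode, and 0 of the chosen cells carried it.

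The score was spread without a gap between cells of low and high level. At 150 cells/µl its 25th, 50th and 75th percentiles were 0.0852%, 0.152% and 0.255% of human UMIs, with a highest value of 0.659%. The same percentiles at 300 cells/µl were 0.0960%, 0.189% and 0.340%, with a highest value of 1.10%. The limits fell in a continuous range. The low-score group ended at 0.0850% and the next cell had 0.0859% at 150 cells/µl, and the corresponding values were 0.0958% and 0.0966% at 300 cells/µl. On the other side, the highest middle cell had 0.2545% and the lowest high-score cell 0.2551% at 150 cells/µl, against 0.339% and 0.340% at 300 cells/µl. The groups are ranges of this score, and with so few UMIs on the 6 genes in a cell a gap between kinds of cell could have been blurred by counting noise.

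**Figure D1:**
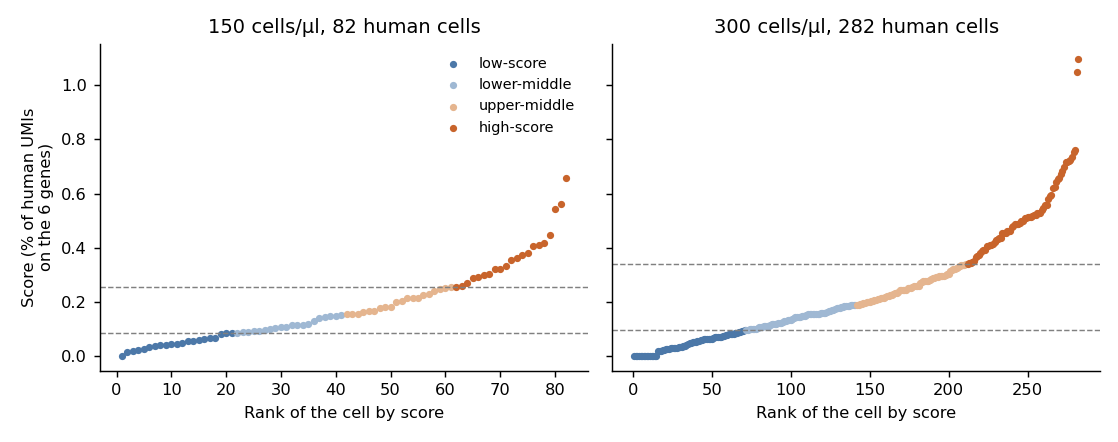
Score of each human cell, in percent of its human UMIs on the 6 genes, against its rank in its library. Each point is 1 cell, coloured by score group, and dashed lines mark the 25th and 75th percentiles; the points form a continuous curve up to 0.659% at 150 cells/µl and 1.10% at 300 cells/µl.

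The score rested on few molecules per cell. A low-score cell had a median of 2 UMIs on the 6 genes in both libraries, and a high-score cell a median of 30 at 150 cells/µl and of 22 at 300 cells/µl. No UMI on any of the 6 was found in 1 cell at 150 cells/µl and in 15 cells at 300 cells/µl. MKI67 and TOP2A gave the most. They made up 20.0% and 25.3% of the score's UMIs at 150 cells/µl and 27.1% and 22.9% at 300 cells/µl, and CDC20 gave the least in both, 8.45% of them at 150 cells/µl.

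Few mouse cells held a UMI of any 1 of these human genes, but mouse cells held few human UMIs at all. Among the mouse cells of the same libraries, the share of cells with a UMI of 1 of the 6 human genes ranged from 0 of 73 cells (UBE2C, which allows a share of up to 4.11% at 3 cells, or 4.93% as the upper Clopper-Pearson limit) to 5.48% (TOP2A and CENPF, 4 of 73 cells) at 150 cells/µl. It ranged from 1.04% (CCNB1, CDC20 and UBE2C, 6 of 576 cells each) at 300 cells/µl to 4.34% (TOP2A, 25 cells). In the human cells it ranged from 47.6% for UBE2C to 75.6% for MKI67 and CENPF at 150 cells/µl, and from 48.6% for UBE2C to 75.9% for MKI67 at 300 cells/µl. The median total depth of the mouse cells, 13411 and 8284 UMIs, was above that of the human cells. However, the 73 and 576 mouse cells together held only 3980 and 26314 human UMIs. A human transcript of this level would seldom be found among so few, so the low shares say little about the 6 genes themselves. Thinned to 2000 UMIs per cell, the human cells showed UBE2C in 20.7% (95% Clopper-Pearson interval 12.6 to 31.1, 82 cells) and 33.7% (28.1 to 39.6, 273 cells). That depth is still far above the human UMIs of a mouse cell.

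Since the 6 genes chose the cells, their own levels under the full score are a description. In CPM, which are UMIs of a gene scaled to a total of 1000000 human UMIs, CCNB1 went from 38.3 in the low-score group through 114 and 330 in the lower-middle and upper-middle groups to 743 in the high-score group at 150 cells/µl, and from 47.1 through 147 and 277 to 819 at 300 cells/µl. TOP2A went from 86.2 through 178 and 584 to 1009 CPM, and from 94.3 through 235 and 526 to 1349 CPM. UBE2C stayed at 38.3 and 35.6 CPM in the low-score and lower-middle groups at 150 cells/µl and reached 183 and 589 CPM. MKI67 was the gene with the shallowest course there, with 163, 441, 395 and 589 CPM, whereas at 300 cells/µl it passed through 156, 545, 812 and 1134 CPM.

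To see whether each gene marks the same cells as the other 5, each was left out of the score in turn and measured in the groups that the remaining 5 formed. All 6 were higher in the high-score group in both libraries and were called by edgeR's quasi-likelihood test with Benjamini-Hochberg adjustment over all genes. Between 17 and 21 of the 21 cells of each group at 150 cells/µl, and between 57 and 67 of the 71 at 300 cells/µl, were the same as under the full score, and 0 cells crossed from one group to the other. The groups differ in depth per cell, as given further on, and each of the 6 differences was also called in groups taken within 3 bands of depth.

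CCNB1, the mitotic cyclin, had 7 UMIs in the low-score and 137 in the high-score group at 150 cells/µl, which are 67.2 and 687 CPM. It had 23 and 244 UMIs at 300 cells/µl, or 85.9 and 692 CPM. The middle cells lay in between, at 252 and 261 CPM, and the summed levels of the groups were far apart in both libraries. The log2 fold change was 3.07 ± 0.25 (SE) with an edgeR adjusted p of 7.41e-32, where 2.70% of all genes were called higher. Within bands of depth it was 2.81.

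UBE2C, the conjugating enzyme of the anaphase-promoting complex, showed the largest difference of the 6. It had 4 and 99 UMIs (38.3 and 533 CPM) in the low-score and high-score groups at 150 cells/µl and 15 and 206 UMIs (54.7 and 586 CPM) at 300 cells/µl. The counting intervals of the libraries overlapped in the low-score, middle and high-score cells. Its log2 fold change was 3.48 ± 0.27 (adjusted p = 6.17e-35 by edgeR, with 2.63% of genes called higher), which ranked 7 among 4520 genes tested.

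CDC20, the activator of the same complex, differed less. It had 8 and 57 UMIs (80.4 and 297 CPM) at 150 cells/µl and 31 and 161 UMIs (110 and 464 CPM) at 300 cells/µl. The counting intervals of its summed CPM did not overlap in either library. They ended at 159 and 156 in the low-score group and began at 225 and 395 in the high-score group. Such intervals cover the counting of summed UMIs and not the spread between cells. The fold change was 3.99, with an SE of 0.24 on the log2 scale (adjusted p = 6.51e-14 by edgeR, with 2.56% of genes called higher).

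TOP2A, the topoisomerase, had 11 and 184 UMIs (108 and 940 CPM) at 150 cells/µl and 48 and 436 UMIs (174 and 1249 CPM) at 300 cells/µl. Its log2 fold change was 2.88 ± 0.17 (adjusted p = 1.34e-13 by edgeR, with 2.16% of genes called higher). After thinning to 2000 UMIs, it was found in 4 of 21 low-score and 13 of 21 high-score cells at 150 cells/µl, and in 30.9% of 68 low-score and 84.3% of 70 high-score cells at 300 cells/µl.

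CENPF, the kinetochore protein, had 19 and 111 UMIs (179 and 585 CPM) at 150 cells/µl and 35 and 258 UMIs (131 and 722 CPM) at 300 cells/µl. Its log2 fold change was 2.18 ± 0.21 (adjusted p = 6.70e-22 by edgeR, with 2.67% of genes called higher). The ratio was lower at 150 cells/µl (log2 1.71, 95% counting interval 1.00 to 2.49) than at 300 cells/µl (2.46, 1.94 to 3.01), and these intervals overlap.

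MKI67 differed least of the 6. At 150 cells/µl it had 39 UMIs in the low-score and 104 in the high-score group, or 324 and 504 CPM, a log2 ratio of 0.64 (0.10 to 1.21). The counts at 300 cells/µl were 89 and 353 UMIs, or 322 and 1031 CPM, a log2 ratio of 1.68 (1.34 to 2.03). The low-score groups were alike and the high-score groups were not. After thinning, 8 of 21 cells held a MKI67 UMI in both the low-score and the high-score group at 150 cells/µl, against 40.3% of 67 and 77.1% of 70 cells at 300 cells/µl. On this measure CDC20, CENPF and UBE2C were not clearly apart at 150 cells/µl either, with 6 against 8, 9 against 12 and 2 against 7 of 21 cells. The Clopper-Pearson intervals of TOP2A overlapped there as well (5.45 to 41.9% against 38.4 to 81.9%). Only CCNB1, with 4 against 16 of 21 cells, had intervals that were apart in that library. The pooled log2 fold change was 1.35 ± 0.16 (adjusted p = 7.49e-14 by edgeR, with 2.41% of genes called higher), and the call was lost with DESeq2 (adjusted p = 0.0806). The libraries differ in concentration and in depth per cell, which cannot be told apart here, and with 1 library each the difference between them has no replicate check.

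**Figure D2:**
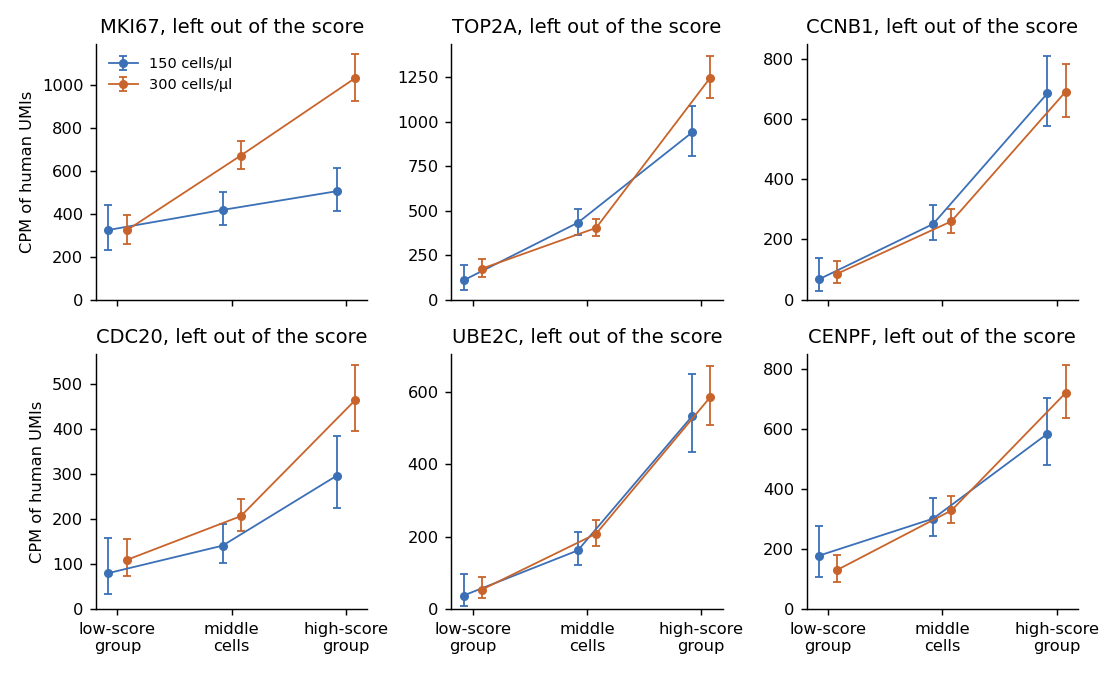
Level of each score gene, in CPM, in the low-score group, middle cells and high-score group formed by the other 5 genes. Points are summed cells of 1 library, and bars are 95% exact Poisson intervals; in all 6 panels both libraries rise from low to high score, and for MKI67 the high-score group is at 504 CPM at 150 cells/µl and 1031 CPM at 300 cells/µl.

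The sizes of these edgeR p-values carry less weight than the levels. With 4 sums and a term for the library, 1 residual degree of freedom was left, and the spread of a gene was estimated almost wholly from the other genes. Over 6 fits the adjusted p of TOP2A ran from 1.62e-57 to 0.00182, that of CCNB1 from 3.90e-36 to 0.000795, that of UBE2C from 5.38e-35 to 0.00070, that of CENPF from 2.35e-22 to 0.0114 and that of CDC20 from 6.34e-14 to 0.0381, all under 0.05.

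Outside the 6 genes, a small part of the genes tested was called different between the high-score and the low-score group. With 4 sums, a gene that was not called may still differ. Of 4622 genes tested by edgeR, 113 (2.44%) were higher in the high-score group and 63 (1.36%) were lower at an adjusted p under 0.05. The higher genes moved further. Their median log2 fold change was 1.54, 89 of them exceeded 2-fold and 39 exceeded 4-fold, whereas the lower genes had a median of −0.68, with 22 beyond 2-fold and 4 beyond 4-fold. The median over all tested genes was −0.02. The lower genes were the more abundant, with a median of 329 UMIs over the 4 sums against 157 for the higher genes and 86 for all genes tested.

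The count of lower genes depended on the processing more than that of higher genes. With RLE in place of TMM scaling, 77 genes were higher and 17 lower, so that the higher share of all calls went from 64.2% to 81.9%, and all of these genes were among those called with TMM. Both scalings differed between the groups by at most 0.044 on the log2 scale. DESeq2 called 17 genes higher and 1 lower, of the 3245 to which it gave an adjusted p. In groups taken within bands of depth, 124 of 4572 genes tested were higher and 72 lower. Of these, 103 and 44 were also called in the main comparison.

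The libraries gave the direction alike for nearly all called genes, which the test itself favours. Of the 113 higher genes, 112 were higher in both libraries, and of the 63 lower genes, 62 were lower in both. The middle cells were not used in the test. Their level lay between those of the 2 groups in both libraries for 90 of the 113 higher genes and for 42 of the 63 lower genes, against 20.7% of all genes tested. Genes called for a wide gap between the groups leave more room for a middle level, so this share follows in part from the choice of genes.

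A ranking from 1 library was also measured in the other. Of the 1988 tested genes with at least 100 UMIs in the 4 sums, the 50 with the highest ratio of high-score to low-score group at 300 cells/µl had a median log2 ratio of 1.61 at 150 cells/µl. There 48 of the 50 were higher in the high-score group and 40 exceeded 2-fold, whereas the median over all 1988 genes was 0.00. In the other direction, the 50 highest at 150 cells/µl had a median of 2.03 at 300 cells/µl, and 45 were higher there. The genes with the lowest ratios carried over less. The 50 lowest at 300 cells/µl had a median of −0.32 at 150 cells/µl, with 33 of the 50 lower, and the 50 lowest at 150 cells/µl had a median of −0.23 at 300 cells/µl, with 34 lower. Between 48.4% and 51.6% of the 1988 genes were lower or higher in either library. Over these genes, which are not independent and share their libraries' depth, the ratios of the libraries had a Pearson r of 0.54 and a Spearman rho of 0.29.

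**Figure D3:**
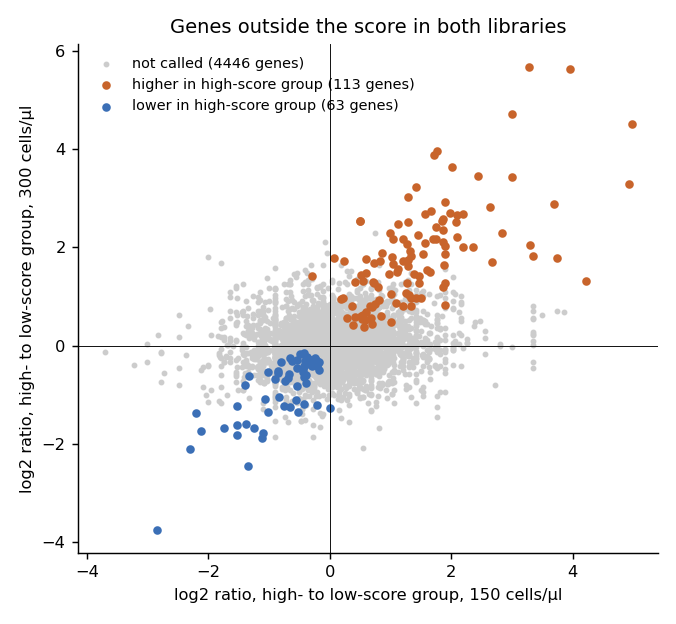
Log2 ratio of the high-score to the low-score group at 150 cells/µl (horizontal) and at 300 cells/µl (vertical) for the 4622 genes tested, with 0.5 UMIs added. Each point is 1 gene; the 113 genes called higher lie mostly in the upper right, beyond most other genes, and 62 of the 63 called lower lie in the lower left, mostly nearer to 0.

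The 2 largest changes in each direction are given by identifier, since the files pair no names with them. ENSG00000134222 was found mostly in cells of high score. It had 0, 0, 2 and 14 UMIs from the low-score to the high-score group at 150 cells/µl and 0, 4, 7 and 31 UMIs at 300 cells/µl. Its high-score group, at 71.7 and 88.8 CPM, was at least 2.50-fold and at least 8.16-fold higher than the low-score group, taking 3 UMIs per library as the floor for the count of 0 (adjusted p = 1.42e-06 by edgeR, 1.10e-08 to 0.0112 over 14 fits). With 0 UMIs in both low-score groups, it passed the filter on low counts and the rule of 50 CPM only through the high-score group. Its place here is thus partly set by those rules. DESeq2 gave no adjusted p for this gene, and it was too scarce to be tested after thinning.

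ENSG00000126787 rose from each group to the next. It had 0, 6, 16 and 29 UMIs at 150 cells/µl, or 0, 42.7, 94.4 and 149 CPM, and 2, 26, 39 and 72 UMIs at 300 cells/µl, or 7.25, 81.5, 119 and 206 CPM. The high-score group was at least 5.17-fold higher at 150 cells/µl, and 28.4-fold higher at 300 cells/µl (counting interval 7.59 to 239). The fitted log2 fold change was 5.01 ± 0.55 (adjusted p = 2.08e-12 by edgeR, 4.18e-17 to 0.00918 over 16 fits).

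ENSG00000175305 took the opposite course. It had 13, 10, 8 and 3 UMIs from the low-score to the high-score group at 150 cells/µl, or 124, 71.2, 47.2 and 15.4 CPM. It had 26, 23, 16 and 2 UMIs at 300 cells/µl, or 94.3, 72.1, 48.7 and 5.73 CPM. Each step was downwards in both libraries. The log2 fold change was −3.48 ± 0.58 (adjusted p = 3.12e-06 by edgeR, 5.70e-08 to 0.0144 over 14 fits, again with no adjusted p from DESeq2 and no test after thinning), and the log2 ratio at 150 cells/µl alone was −2.85.

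ENSG00000189057 had 22, 23, 4 and 8 UMIs at 150 cells/µl, or 211, 164, 23.6 and 41.0 CPM, and 49, 35, 23 and 14 UMIs at 300 cells/µl, or 178, 110, 70.0 and 40.1 CPM. Both groups above the median score were below both groups under it in each library. The log2 fold change was −2.25 ± 0.34 (adjusted p = 2.02e-07 by edgeR), and the call was lost with DESeq2 (adjusted p = 0.140).

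Genes of the cell cycle were then taken from a table shipped with the scran package, which pairs Ensembl identifiers by phase from other cells. A gene was assigned to the phase in which it most often led its pairs. The assignment is coarse. Of the 6 score genes it places only MKI67, TOP2A and UBE2C in G2 and M phase, with CDC20 in G1 and CCNB1 and CENPF in no phase. Without the score genes, 84 genes assigned to G2 and M phase were present, and 52 passed the filter on low counts and were tested. A gene could pass through the sums of 1 score group alone, so the shares given here are partly shaped by that filter. Of the 52, 21 (40.4%) were higher in the high-score group and 0 were lower, with a median log2 fold change of 0.81. The corresponding background is 2.44% higher and a median of −0.02 over all genes tested. Of the 84 tested genes assigned to S phase, 1 (1.19%) was higher and 4 (4.76%) were lower, with a median of 0.08. Of the 65 assigned to G1, 6 (9.23%) were higher and 5 (7.69%) lower, with a median of 0.00. The G1 genes ranged from −3.48 to 4.48, and the lowest value was that of ENSG00000175305. Over all genes tested, 1.36% were lower.

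The summed level of the G2 and M phase genes rose with each score group. It was 0.392%, 0.477%, 0.583% and 0.725% of human UMIs from the low-score to the high-score group at 150 cells/µl, and 0.410%, 0.548%, 0.652% and 0.964% at 300 cells/µl. The counting intervals of neighbouring groups did not overlap in either library. The S phase genes had no such course. They took 1.05%, 1.23%, 1.13% and 1.14% of human UMIs at 150 cells/µl, where the lower-middle group was the highest, and 1.34%, 1.34%, 1.33% and 1.32% at 300 cells/µl. The G1 genes took 0.838%, 0.908%, 0.825% and 0.837% at 150 cells/µl and 0.891%, 0.888%, 0.861% and 0.932% at 300 cells/µl.

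**Figure D4:**
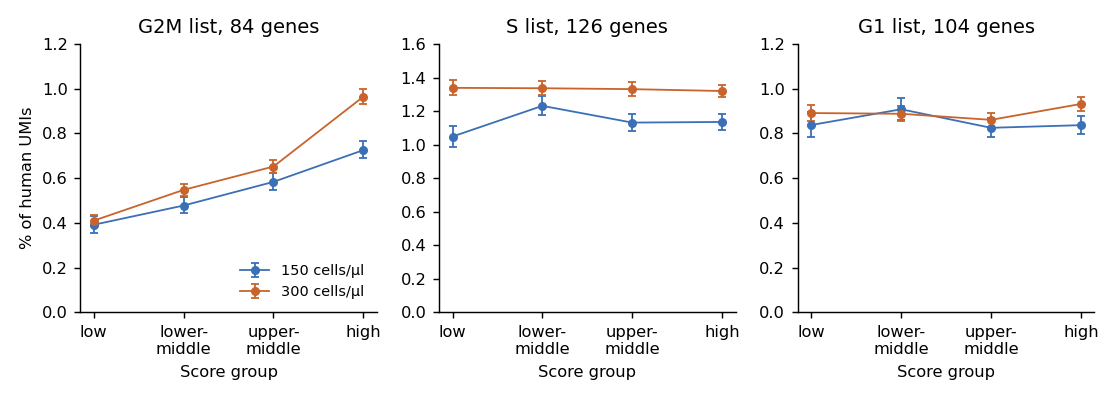
Summed share of human UMIs, in percent, of the genes assigned to G2 and M phase (84 genes), S phase (126) and G1 (104) in the 4 score groups. Points are summed cells of 1 library and bars are 95% exact Poisson intervals; the G2 and M phase genes rise from 0.392% to 0.725% and from 0.410% to 0.964%, and the others show no such rise from group to group.

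High-score cells also held more human UMIs. Their median was 8473 against 4826 in low-score cells at 150 cells/µl, a ratio of 1.76, with 6286 and 7022 in the lower-middle and upper-middle groups. At 300 cells/µl the medians were 3566, 3846, 3925 and 4038, a ratio of high to low score of 1.13. The spread was wide, with interquartile ranges of 5096 to 12682 UMIs for high and 3530 to 6010 UMIs for low scores at 150 cells/µl, and of 3152 to 6355 and 2855 to 4342 at 300 cells/µl. The ranges of the groups overlapped in both libraries. The score is a share of a cell's human UMIs, and cells of few UMIs measure it more coarsely. Whether depth affected which score group a cell fell in was not tested.

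At an equal depth the groups were close in the number of genes detected. Thinned to 2000 UMIs, a high-score cell showed a median of 1273 genes against 1221 for low scores at 150 cells/µl, and 1308 against 1277 at 300 cells/µl. The lower-middle and upper-middle groups, at 1214 and 1229 and at 1280 and 1281 genes, were below the high-score group in both libraries. Of the 6 score genes, a high-score cell showed a median of 3 and 5 at this depth and a low-score cell 1 in both libraries. Of the 282 cells at 300 cells/µl, 9 had under 2000 human UMIs and were left out, 3 of them of low and 1 of high score.

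Mouse UMIs made up a somewhat smaller part of high-score than of low-score cells. From the low-score to the high-score group, their median share was 1.97%, 1.94%, 1.52% and 1.51% at 150 cells/µl. At 300 cells/µl it was 3.57%, 3.78%, 3.58% and 2.90%, with no steady course. The interquartile ranges of low and high scores overlapped, at 1.53 to 2.69% and 1.07 to 1.71% at 150 cells/µl. At 300 cells/µl they were 2.57 to 5.30% and 2.06 to 4.70%. Mouse UMIs were not part of the score or of the sums tested. Cells with at least 95% human UMIs gave 101 higher and 50 lower genes. Doublets of 2 human cells were not sought, and their part in the depth of the high-score cells was not tested.

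**Figure D5:**
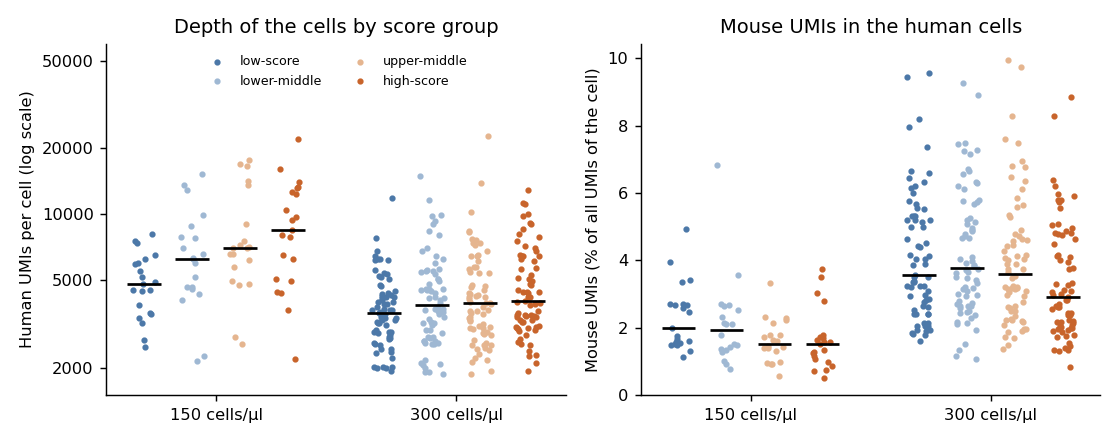
Human UMIs per cell on a log axis (left) and mouse UMIs in percent of all UMIs of the cell (right), for the 4 score groups in each library. Each point is 1 human cell and black lines are medians; median depth runs from 4826 to 8473 at 150 cells/µl and from 3566 to 4038 at 300 cells/µl.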

How the data were processed

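The deposited values were raw UMI counts, whole numbers in 1 table for each library with genes against barcodes. According to the study's methods and the submitters' processing notes, reads were processed with the Drop-seq tools and STAR 2.4.2a against a joint reference of hg19 and mm10 (Cell Ranger reference 1.2.0) after downsampling to a common depth. Whether the deposited counts came from downsampled reads is not given in the sources used here.

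Members and gene lists were chosen with earlier results of these data known. UMIs of human genes were summed per library and score group, since cells are not replicates, and the 4 sums were tested with edgeR 4.0.16 (R 4.3.3; TMM, filterByExpr, quasi-likelihood F test, library as a term, Benjamini-Hochberg threshold 0.05). The score genes were left out of the test but kept in the totals. An SE is the log2 fold change divided by the root of F. Testing the score gene left out was added after the data were seen, as values alone had been planned, and so was the phase table of scran 1.30.0 (net count of pairs at least 50). The p-values rest on a spread between 2 libraries that was estimated almost wholly from the other genes, and that spread may be technical. They hardly reflect how far a gene itself differed between the libraries. Intervals (95%; exact Poisson, Clopper-Pearson, or exact conditional binomial for ratios) cover counting error only. Thinning used 1 seeded draw to 2000 UMIs. The edgeR and DESeq2 1.42.0 code was run on simulated counts with the same folds in both libraries. That run checks the code only and says nothing on the spread between the libraries. Genes named by identifier were the 2 in each direction with the largest called change, moving alike in the libraries and reaching 50 CPM or more in the group of higher level of each. Both this rule and the filter on low counts can be met through the group of higher level alone. The files hold only Ensembl identifiers, and the gene table at hand pairs none with symbols, so the planned lists of mitosis, S phase and other genes, the T cell markers and the mitochondrial filter were not used here. No doublet caller was run.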

Additional observations from a re-analysis of the deposited data

Results flagged for a closer look

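Human barcodes of 1000 to under 2000 UMIs were below the depth needed to enter the comparison and also held the 6 score genes, above what a count of 0 allows. At 150 cells/µl, 5 such barcodes had 17 UMIs on them, 0.252% of their human UMIs (95% Poisson interval 0.147 to 0.403), against 0.214% in the 82 deeper human cells. At 300 cells/µl, 36 barcodes had 94 UMIs on them, 0.179% (0.145 to 0.220), against 0.255% (0.247 to 0.264) in the 282 deeper cells.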

How the results depend on the processing

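Under the other settings, 132 of 156 values kept their direction and side of the threshold or stayed close, and 2 reversed, both of them ratios of median depth. The count of higher genes was 113 in the main comparison. It moved beyond 1.5 times with DESeq2 (17, of 3245 genes with an adjusted p) and without the library term, that is with no replicate block (40). It also did so with cells thinned to 2000 UMIs (54, of 2225 genes tested). The count of lower genes was 63 and fell to 1 with DESeq2, 17 with RLE scaling, 32 without the filter on low counts, 7 without the block, 9 after thinning, 25 with a split at the median score and 26 with at least 3000 UMIs per cell. Thinning leaves fewer UMIs and genes, and the cells were scored and grouped anew after it, with 70 high-score and 90 low-score cells at 300 cells/µl. The cause of the changed counts was not tested for any setting. At an unadjusted p under 0.05, edgeR gave 585 genes and DESeq2 107. All calls with DESeq2, with RLE, without the block and after thinning were among the main calls. The degrees of freedom that edgeR took from the other genes were 102 in the main fit, 9.01 with RLE and 9.15 without the block. Both score groups come from each library, so the library term is the block.

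For the score genes left out, alternatives other than leaving out a library were chosen after seeing the data. MKI67 lost its call with DESeq2 (log2 1.21). From 1 library alone, as values with no test, the log2 ratio ran from 0.64 to 1.68 for MKI67, 2.85 to 3.12 for TOP2A, 3.01 to 3.35 for CCNB1, 1.88 to 2.08 for CDC20, 3.42 to 3.80 for UBE2C and 1.71 to 2.46 for CENPF. For ENSG00000134222 it was 3.96 and 5.64 with 0.5 UMIs added, and the fitted value depends on such an addition. The ratio of median depth, 1.76 and 1.13, turned to 0.998 and 0.978 within 3 bands of depth, by construction, and was 1.40 to 1.91 at 150 cells/µl and 1.08 to 1.21 at 300 cells/µl in the other settings. The mitochondrial filter and the planned lists were not run. The smallest log2 changes called were 0.36 and −0.29.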

Other observations

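The few human UMIs found in mouse cells carried the 6 score genes at a share no lower than that of the human cells themselves. At 150 cells/µl, 17 of 3980 human UMIs in 73 mouse cells were on the 6 genes (0.427%, 95% Poisson interval 0.249 to 0.684), against 0.214% (0.202 to 0.225) in the human cells. At 300 cells/µl, 80 of 26314 were (0.304%, 0.241 to 0.378), against 0.255% (0.247 to 0.264). Both shares were well above those of the low-score group, which were 0.0479% and 0.0464%.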
